A study of Homo sapiens with 6 samples.

Results

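The major histocompatibility complex (MHC) is taken here as the 4.97 Mb of chromosome 6 between 28.48 and 33.45 Mb on hg19. Its members are the rows of 4 deposited peak lists whose midpoint lies in that stretch. The rule uses position alone and no measured value. It picked 461 of 191314 regions of 5-hydroxymethylcytosine (5hmC) in high glucose and 523 of 209999 in normal glucose. For 5-methylcytosine (5mC) it picked 271 of 100220 regions in high and 224 of 91870 in normal glucose. Over the 4 lists, 1479 of 593403 regions on chromosomes 1 to 22 and X were members.

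The lists come from A2058, a human melanoma cell line that overexpressed wild-type TET2, a dioxygenase that oxidises 5mC to 5hmC. All cells carried this overexpression. They were grown for 7 days in high or in normal glucose at concentrations that the labels do not state. Genomic DNA was enriched with an antibody against 5hmC (hMeDIP-seq) or against 5mC (MeDIP-seq), with 1 library per mark and glucose level. Nothing here is replicated, so no p-value is printed. All intervals cover counting error only. How PCR copies were treated is not stated, and any that were kept would count as separate molecules. Cells without the TET2 overexpression and the input libraries were not analysed here.

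The MHC is a gene-dense region that holds many immune genes. Class I genes such as HLA-B and HLA-C encode the molecules that present peptides from inside the cell to cytotoxic T cells. Class II genes such as HLA-DRA and HLA-DPB1 encode the molecules that present taken-up antigen to helper T cells, and lie among the genes for peptide transport (TAP1, TAP2) and for immunoproteasome subunits (PSMB8, PSMB9). The class III stretch between them holds genes of complement (C2, CFB, C4A, C4B), of the cytokine TNF and of heat shock protein 70 (HSPA1A, HSPA1B). In melanoma, loss of class I presentation is a known route of immune escape. In the RefSeq table for GRCh38, which differs in build from the lists and was used for the order of genes only, these symbols run in this order: HLA-F, HLA-G, HLA-E, HLA-C, HLA-B, TNF, HSPA1A, C2, CFB, C4A, C4B, NOTCH4, HLA-DRA, HLA-DQB1, TAP2, PSMB8, TAP1, PSMB9, HLA-DPB1 and TAPBP. Peaks are given by position and none is assigned to a gene, since an hg19 gene annotation was not used here.

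From its telomeric side, the interval was split at 29.6, 31.5, 32.1 and 33.4 Mb into a telomeric end, class I, class III, class II and a centromeric end of 48.4 kb. At the telomeric border the last high-glucose 5hmC region outside had a fold enrichment of 4.71 and the first inside 7.16. The high-glucose 5mC regions on that border had a fold of 17.3 outside and 10.9 inside. At the centromeric border the high-glucose 5hmC regions had 3.69 inside and 4.71 outside, and the high-glucose 5mC regions 7.48 inside and 5.76 outside. No region of any list spanned a border of the interval. Fold enrichment and -log10 p are the authors' values for each peak and rank peaks within a list. Where folds of both glucose levels stand side by side, they describe the pair of peaks and show no change, since the backgrounds of the lists differ.

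The lists carry no read numbers. Each summit's number of fragments was solved from its fold and p-value, and the median over MHC regions was 21 for high-glucose and 17 for normal-glucose 5hmC, and 11 for 5mC in both lists. The background, read as the smallest expected count shared by many peaks, came to 3.03 fragments for 5hmC at high and 2.64 at normal glucose, and to 0.737 and 0.615 for 5mC. The 4 lists held 0 rows on the alternative haplotype sequences of hg19, so all members lie on the reference haplotype, and the HLA haplotypes of A2058 itself are not known from these files.

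Both marks were listed more densely in the MHC than in the rest of chromosome 6. 5hmC had 92.7 regions per Mb in the MHC and 43.7 in the rest of the chromosome in high glucose, a ratio of 2.12 (95% interval 1.93 to 2.33). In normal glucose it had 105 in the MHC and 48.7 in the rest, a ratio of 2.16 (1.97 to 2.36). 5mC had 54.5 and 24.5 regions per Mb in high glucose, a ratio of 2.23 (1.96 to 2.52), and 45.1 and 20.6 in normal glucose, a ratio of 2.18 (1.90 to 2.502). The ratio was above 2 in each of the 4 lists. As a share of the sequence, 5hmC regions covered 5.95% of the MHC and 2.35% of the rest in high glucose, and 6.57% and 2.50% in normal glucose. 5mC covered 3.39% and 1.47% in high glucose and 2.89% and 1.27% in normal glucose. The rest was taken between the outermost listed peaks of the chromosome, 165.9 Mb, and this density was not tested against other gene-rich stretches.

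By strength, the MHC regions had slightly higher medians than the rest of the chromosome but held none of the top peaks. The strongest 1% of each list by -log10 p included 0 of 461 in high-glucose and 0 of 523 in normal-glucose 5hmC, and 0 of 271 and 0 of 224 in 5mC. A count of 0 allows a share of up to 0.651%, 0.574%, 1.11% and 1.34% in these lists, taken as 3 divided by the number of regions (about 95% confidence). Over a whole list the share is 1% by definition, which is above both 5hmC limits and below both 5mC limits. The rest of chromosome 6 was also below 1%, with 0.193%, 0.210%, 0.172% and 0.146%. These shares are all below the limits, so fewer top peaks in the MHC than in the rest were not detectable at this number of regions. The best-placed MHC region held rank 5439 for 5hmC in high glucose and 3205 in normal glucose, and rank 2049 and 2381 for 5mC. In high-glucose 5mC the median -log10 p was 10.6 in the MHC and 8.17 in the rest, and in normal-glucose 5mC it was 11.02 and 8.91. For 5hmC the medians were 9.89 and 9.18 in high glucose and 8.44 and 7.66 in normal glucose.

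**Figure D1:**
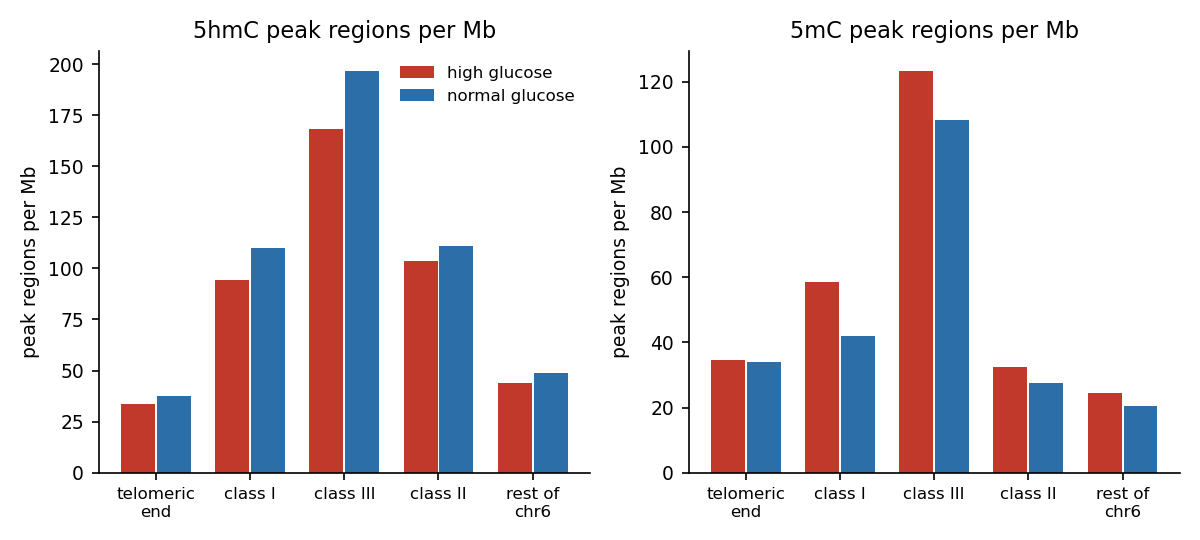
Peak regions per Mb in 4 parts of the MHC and in the rest of chromosome 6, for 5hmC (left) and 5mC (right), with 1 bar per library in high (red) and normal (blue) glucose. Class III is the densest of the 4 parts in every list, and the telomeric end is the sparsest for 5hmC.

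Within the MHC the marks had different maps. Class III was densest for both. It held 101 5hmC regions in high and 118 in normal glucose, which is 168 and 197 per Mb, or 3.85 and 4.04 times the density of the rest of the chromosome. It held 74 and 65 5mC regions, 123 and 108 per Mb, or 5.04 and 5.25 times that density. 5hmC covered 11.6% of class III in high and 13.8% in normal glucose, and 5mC covered 8.75% and 7.63%. The 48.4 kb of the centromeric end, with 8 and 10 5hmC and 5 and 5 5mC regions, are too short to rank.

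Class II had the lowest 5mC density of the 4 longer parts, though still above that of the rest of the chromosome. For 5hmC it came second to class III in density, but in normal glucose it was about level with class I (111 and 110 per Mb). It had 135 and 144 5hmC regions in high and normal glucose, 2.38 and 2.28 times the density of the rest of the chromosome, but 42 and 36 5mC regions, 1.32 and 1.34 times that density. These densities are uneven within the part. The 100 kb from 32100001, next to class III, alone held 29 and 26 of the 5hmC regions and 9 and 8 of the 5mC regions. For each 5mC region there were 3.21 5hmC regions in high and 4.0 in normal glucose. The rest of the chromosome had 1.79 and 2.36, class I had 1.61 and 2.61, and class III 1.36 and 1.82. The telomeric end lay at the other extreme, with 0.974 and 1.11. It held 38 and 42 5hmC regions, 0.775 and 0.769 times the density of the rest, and 39 and 38 5mC regions, 1.42 and 1.64 times. Since the 5mC libraries rest on fewer fragments than the 5hmC libraries, these ratios compare the parts within a glucose level and do not give the true ratio of the marks.

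In class I, both marks were denser than in the rest of the chromosome. Its 179 and 209 5hmC regions in high and normal glucose gave 94.2 and 110 per Mb, 2.16 and 2.26 times the rest of the chromosome. Its 111 and 80 5mC regions gave 58.4 and 42.1 per Mb, 2.39 and 2.04 times. Over the 4 longer parts, the median width in high glucose ran from 433.5 bp in the telomeric end to 584 bp in class III for 5hmC. For 5mC it ran from 444 bp in class II to 579 bp in class III. In the whole MHC the median width was 498 and 483 bp for 5hmC in high and normal glucose, against 437 and 410 bp in the rest of the chromosome. For 5mC it was 497 and 506 bp in the MHC and 454 and 462 bp in the rest. Regions of 2000 bp or more numbered 7 of 461 and 10 of 523 for 5hmC, against 25 of 7249 and 45 of 8077 in the rest of the chromosome. For 5mC they were 3 of 271 and 4 of 224, against 77 of 4060 and 68 of 3422.

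Windows of 100 kb, each given by its first base, showed steps inside the classes. In class III, 5hmC cover ran from 4.99% to 18.2% in high and from 7.53% to 18.2% in normal glucose, lowest from 31900001. The median of the class III windows was 12.3% and 14.0%, against 4.42% and 4.62% over all MHC windows. 5mC cover in class III was 5.20% to 11.0% and 5.44% to 9.39%. Just past the class III border, the class II window from 32100001 still had 18.4% and 17.7% 5hmC cover and 7.85% and 6.36% 5mC cover. In the next window, from 32200001, 5hmC fell away to 2.55% in high and 2.88% in normal glucose, and 5mC was at 0 in both. From 32500001, 5hmC cover was 0.458% in high glucose and 0 in normal glucose. 5hmC then returned at the centromeric side of class II, with 16.4% and 20.1% from 33100001, where 5mC covered 3.94% and 3.69%. Class I was similarly uneven. Its 4 windows from 30500001 on had 5hmC covers of 8.50% to 11.9% in high and 11.3% to 15.8% in normal glucose, while that from 30400001 had 0.990% and 1.77%.

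**Figure D2:**
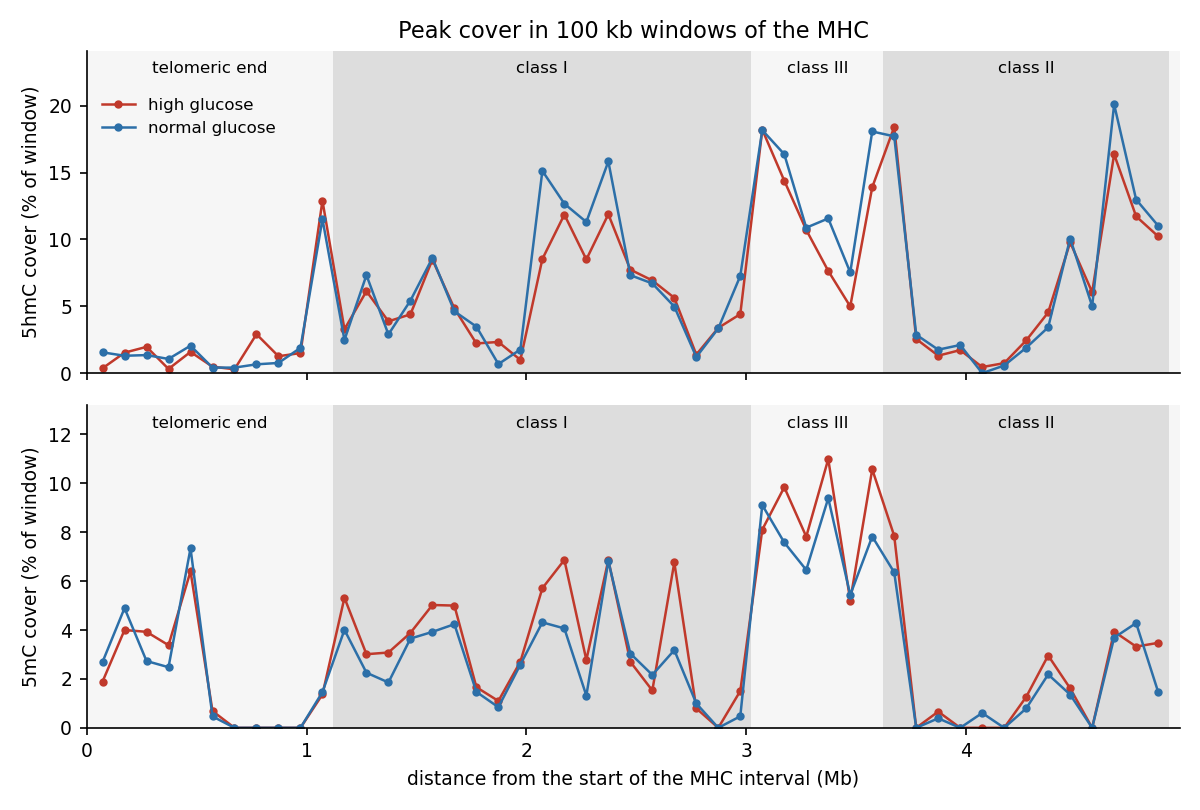
Percent of each 100 kb window covered by peak regions, for 5hmC (top) and 5mC (bottom), in high (red) and normal (blue) glucose, by distance from the start of the MHC interval. Most of class III and the 2 sides of class II stand out for 5hmC. 5mC is at or near 0 in the windows from 32200001 to 32600001 of class II and from 29000001 to 29400001 of the telomeric end.

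Long stretches held no region of a mark at either glucose level. The longest without 5mC ran for 517 kb in the telomeric end, from 29004154 to 29520881, where 15 5hmC regions were listed in high and 13 in normal glucose. Class II had 3 of the 5 longest without 5mC, from 32196839 to 32334317, from 32379239 to 32568939 and from 32569547 to 32729096. Class I had the other one, 175 kb from 31276702 to 31451968, with 10 5hmC regions in high and 12 in normal glucose. For 5hmC, the longest empty stretch, 142 kb from 32433074 to 32575206, lay in class II and was followed, after 1 short region, by another of 100.4 kb from 32575665 to 32676055. Between 32433074 and 32676055, 5hmC was thus listed at 1 place, in high glucose only, and 5mC at 1 place, in normal glucose only. In the whole MHC, stretches of 100 kb or more without a region made up 7.36% of the interval for 5hmC and 28.1% for 5mC, against 16.3% and 51.9% in the rest of the chromosome. Whether reads could be placed equally well in all these stretches was not tested.

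On the scale of 1 Mb, with each window given by its first base, the windows of the MHC spread widely over the ranks of chromosome 6. The window from 33000001, which crosses the centromeric border, had the highest 5hmC cover of all 172 windows at both glucose levels, 10.3% in high and 11.3% in normal glucose. Most of this window lies outside the MHC. The window from 31000001 held rank 3, with 7.77% and 8.80%, and rank 9 and 8 for 5mC, with 5.25% and 4.48%. From 30000001 the 5hmC cover was 6.74% and 8.14%, rank 7 and 6, and the 5mC rank was 15 and 18. From 32000001 the 5hmC rank was 13 and 16 and the 5mC rank 39 and 42. The window from 29000001, also inside the MHC, had rank 33 and 48 for 5hmC, with 3.70% and 3.38%, and rank 53 and 55 for 5mC. The window across the telomeric border, from 28000001, had the reverse order, with rank 110 and 111 for 5hmC and rank 42 and 32 for 5mC. The median window away from the MHC had a 5hmC cover of 1.94% and 1.87% and a 5mC cover of 0.685% and 0.609%. The highest windows away from the MHC reached 9.69% and 10.8% for 5hmC, and 8.25% and 7.29% for 5mC. These values lay above those of every window wholly inside the MHC.

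**Figure D3:**
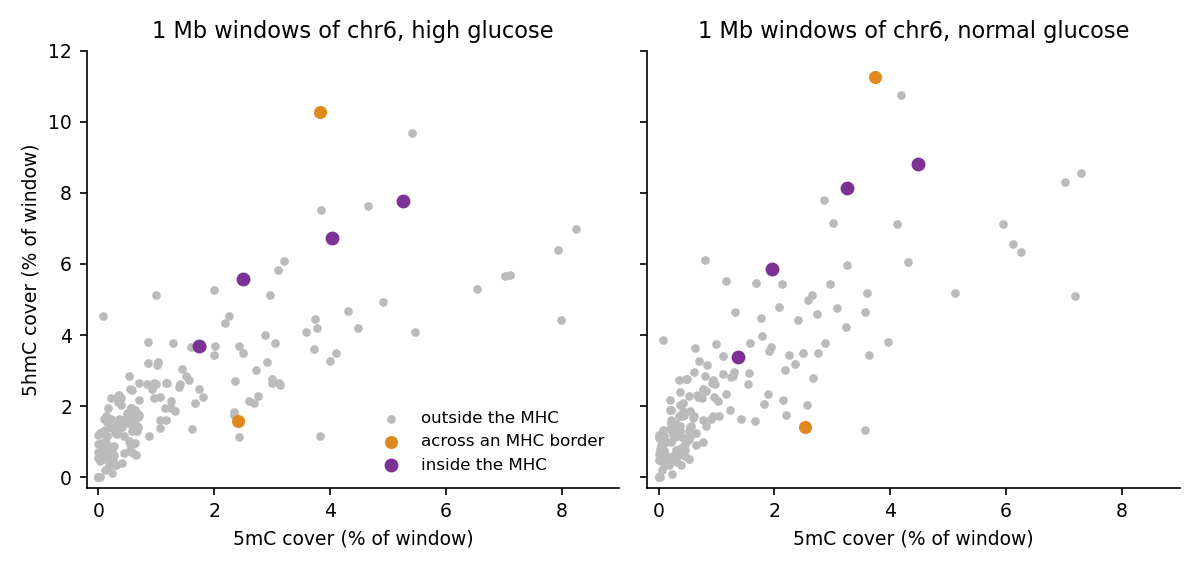
5hmC cover against 5mC cover of the 172 windows of 1 Mb on chromosome 6 in high (left) and normal (right) glucose, with 4 windows inside the MHC in purple, 2 across its borders in orange and 166 others in grey. The window across the centromeric border has the highest 5hmC cover in both panels, while that across the telomeric border has 1.57% and 1.43%.

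The first comparison between the glucose levels is the number of 5hmC regions. High glucose had 461 and normal glucose 523, a ratio of 0.881 (95% interval 0.776 to 1.001, counts treated as independent). The ratio was 0.897 in the rest of chromosome 6 and 0.911 over all chromosomes. It was 0.905 in the telomeric end, 0.856 in class I, 0.856 in class III and 0.938 in class II, and each of these intervals included 1. Covered length was 296 kb in high glucose, against 326 kb in normal glucose. The order turned above a -log10 p of 10, to 230 regions in high glucose and 192 in normal glucose (ratio 1.198). It was then 1.29 in class I, 1.24 in class III, 1.07 in class II and 1.22 in the rest of the chromosome. With the backgrounds of the libraries matched at that threshold, the MHC ratio was 0.990. The order of the glucose levels for 5hmC in the MHC thus depends on the threshold, as it does in the rest of the chromosome.

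For 5mC, high glucose had 271 and normal glucose 224 regions, a ratio of 1.21 (1.01 to 1.45). The rest of chromosome 6 had 1.19 and all chromosomes 1.09. Class I had the highest of the 3 class ratios, 111 against 80 or 1.39 (1.03 to 1.87). Class III had 74 against 65 or 1.14, class II 42 against 36 or 1.17, and the telomeric end 39 against 38 or 1.03. The class I interval includes the ratio of the rest of the chromosome, and the difference between the parts was not tested. Of the 19 class I windows of 100 kb, 15 had more 5mC cover in high glucose, 3 had less and 1 had none at either level, and above a -log10 p of 10 these were 12 with more and 6 with less. In class II it was higher in 7 and lower in 2 of 13, in class III higher in 4 and lower in 2 of 6, and in the telomeric end higher in 3 and lower in 4 of 11. Above a -log10 p of 10, the MHC ratio was 1.11 and that of class I 1.15. With the backgrounds also matched they were 0.976 and 1.04. The high-glucose 5mC library also had the higher background, and its part in the excess of 5mC regions was not tested beyond this match.

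**Figure D4:**
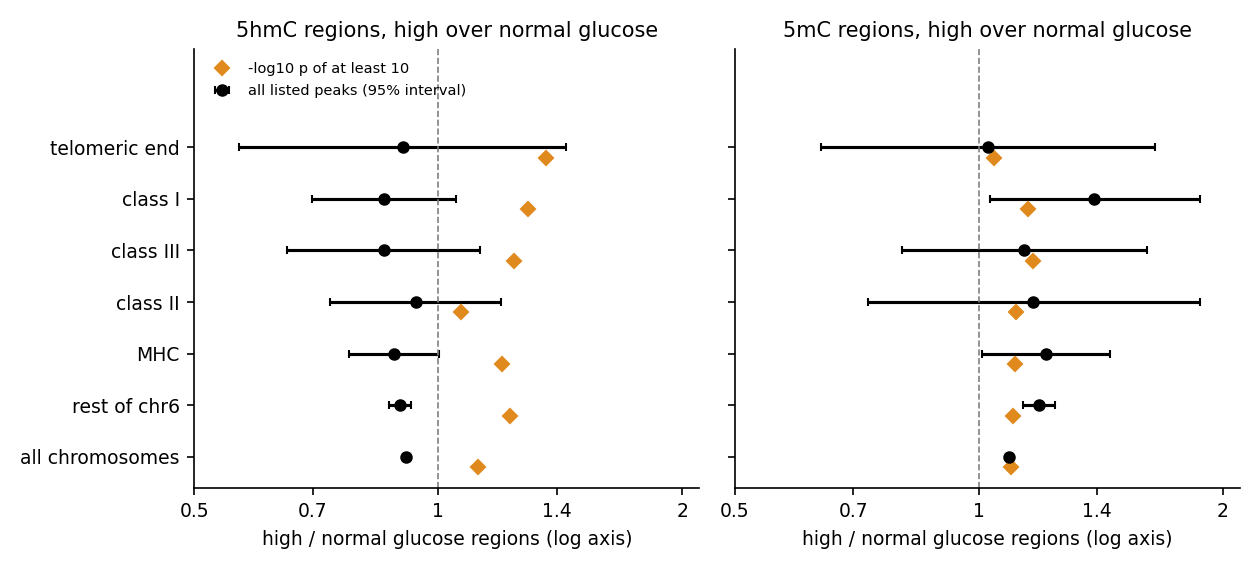
Number of peak regions in high over normal glucose on a log axis, for 5hmC (left) and 5mC (right), for the telomeric end, class I, class III, class II and the whole MHC, in the rest of chromosome 6 and over all chromosomes, without the short centromeric end. Black points with exact binomial 95% intervals use all listed peaks and orange diamonds those from a -log10 p of 10 upward. The 5hmC points lie below 1 and their diamonds above 1, while the 5mC points and diamonds shown lie above 1.

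Most members had a partner at the other glucose level. Of the MHC 5hmC regions, 370 of 461 in high glucose (80.3%, Wilson 95% interval 76.4 to 83.6) and 374 of 523 in normal glucose (71.5%, 67.5 to 75.2) overlapped a region of the other level by at least 1 bp. The share without a partner was 19.7% in high glucose, against 28.3% in the rest of the chromosome and a background of 24.1% over all chromosomes. In normal glucose it was 28.5%, against 35.7% and 31.2%. For 5mC, 92 of 271 high-glucose regions had no partner, 33.9% against 36% in the rest and 28.3% over all chromosomes. In normal glucose these were 46 of 224, 20.5% against 23.8% and 21.5%. The intervals of the shared 5hmC regions lay above those of the rest of chromosome 6, which were 70.6 to 72.7% in high and 63.2 to 65.3% in normal glucose. No test of this difference was made. For 5mC the MHC interval, 60.2 to 71.4% with a partner in high glucose, included the 64.04% of the rest. Both readings depend on the baseline. Over all chromosomes, the share of 5hmC regions with a partner lay just below the high-glucose MHC interval. It lay inside the normal-glucose one. The share of 5mC regions over all chromosomes lay slightly above the high-glucose MHC interval and inside the normal-glucose one.

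By part, the shares were as follows, with no test between parts. In the high-glucose 5hmC list, 14.1% of class II, 16.8% of class III, 22.3% of class I and 36.8% of telomeric regions had no partner. In the high-glucose 5mC list, these were 38.1%, 29.7%, 39.6% and 25.6%, with intervals that all overlapped. In class I, 67 5mC regions of each list had a partner. The 44 high-glucose and 13 normal-glucose regions without one thus follow from the totals of 111 and 80. As shares they were 39.6% and 16.25%, against 36% and 23.8% in the rest of the chromosome and 28.3% and 21.5% over all chromosomes. Regions without a partner had the lower -log10 p. In high-glucose 5hmC the median was 7.84 without and 10.8 with a partner, and in normal glucose 6.19 and 9.53. For 5mC it was 5.95 against 14.4 and 6.53 against 13.1. Above a -log10 p of 10, 23 of 230 high-glucose and 14 of 192 normal-glucose 5hmC regions had no partner in the full list of the other level, against 375 of 3185 and 267 of 2601 in the rest of the chromosome. For 5mC these were 9 of 141 and 7 of 127, against 151 of 1702 and 71 of 1545. Where regions were shared, the summits of the glucose levels lay a median of 63.5 bp apart for 5hmC and 42 bp for 5mC, against 56 and 52 bp in the rest of the chromosome.

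Of the members found in high glucose alone, the strongest 5hmC region ran from 29496691 to 29497142 in the telomeric end, with a fold of 7.69, 30 fragments at its summit and no normal-glucose region within 14142 bp. Next came class II from 32911749 to 32912264, whose fold was 7.44 and whose nearest normal-glucose region lay 1007 bp away, and class I from 31361404 to 31361964, with a fold of 6.95. In normal glucose alone, the strongest lay in class I from 30887450 to 30887990, with a fold of 6.60 and 23 fragments. There a 5mC region of normal glucose overlapped it, and none of high glucose did. Class I from 30576534 to 30577491, with a fold of 5.87, likewise overlapped 5mC of normal glucose only. Class III from 31615122 to 31615535, with a fold of 5.77, overlapped no 5mC region. These peaks hold 20 to 30 fragments against an expected 2.64 to 3.03, and a region found at 1 level is not thereby shown to differ.

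Among 5mC regions of high glucose alone, class III from 32019951 to 32020720 was strongest, at a fold of 10.4 and 17 fragments. The nearest 5hmC region lay 44 bp away in normal glucose and 1006 bp away in high glucose. Class I from 29767944 to 29768557, with a fold of 9.21, and class I from 31451969 to 31452341, with 8.63, followed, 26662 and 28227 bp from the nearest normal-glucose 5mC region. In normal glucose alone, 3 regions shared a fold of 8.05 and 12 fragments. They ran from 28606462 to 28606890 in the telomeric end and from 31520363 to 31520827 and from 31594767 to 31595811 in class III. The last of them overlapped 5hmC at both glucose levels.

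The next question was how much of the 5mC map also carried 5hmC, the oxidation product of 5mC. In the MHC, 72 of 271 high-glucose 5mC regions overlapped a high-glucose 5hmC region, 26.6% (21.7 to 32.1), against 90 of 224 in normal glucose, 40.2% (34.0 to 46.7). The rest of chromosome 6 had 20.9% (19.7 to 22.2) and 26.4% (25.0 to 27.9), and all chromosomes 32.2% and 39.7%. The difference between the glucose levels was -13.6 percentage points in the MHC. Exchanging 1 list at a time gave values between these. High-glucose 5mC regions overlapped normal-glucose 5hmC regions at 35.8%, and normal-glucose 5mC regions overlapped high-glucose 5hmC regions at 30.8%. Above a -log10 p of 10 in each list, 17.0% in high and 18.9% in normal glucose remained, a difference of -1.88 points.

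By part, this share was highest in class II and lowest in the telomeric end, the parts with the most and the fewest 5hmC regions for each 5mC region. Class II had 42.9% (29.1 to 57.8) in high and 55.6% (39.6 to 70.5) in normal glucose. Class III had 33.8% (24.0 to 45.1) and 46.2% (34.6 to 58.1), and class I 20.7% (14.2 to 29.2) and 37.5% (27.7 to 48.5). The telomeric end had 3 of 39 and 6 of 38, 7.69% (2.65 to 20.3) and 15.8% (7.44 to 30.4). Each part had the lower share in high glucose. The intervals of the glucose levels overlapped in each part, and for class I by the least.

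**Figure D5:**
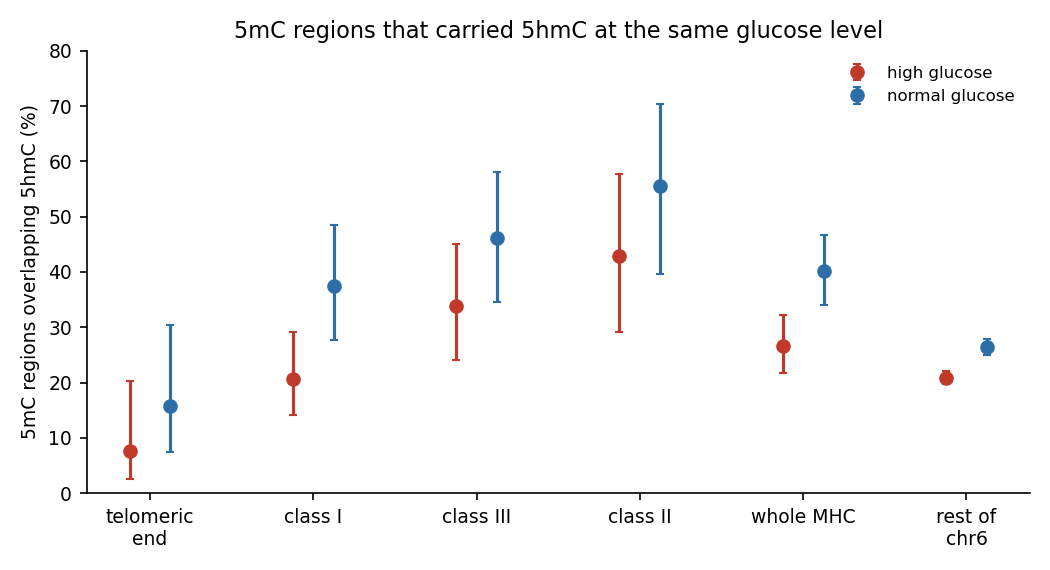
Percent of 5mC regions that overlapped a 5hmC region of the same glucose level, with Wilson 95% intervals, in high (red) and normal (blue) glucose for 4 parts of the MHC, the whole MHC and the rest of chromosome 6. The share is lower in high glucose in every group shown, with 26.6% against 40.2% in the whole MHC.

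When overlapping rows of the 4 lists were joined, the MHC had 782 separate places. Of these, 118 (15.1%) carried both marks in some list, against 9.70% in the rest of the chromosome. Places with all 4 lists numbered 60, 7.67% (6.01 to 9.75), against 4.14% (3.81 to 4.49) of 13509 in the rest. In class III they were 22 of 170, or 12.9%, in class II 14 of 182, in class I 19 of 325 and in the telomeric end 2 of 94. 5mC without any 5hmC made up 41.5% of places in the telomeric end, 25.8% in class I, 24.1% in class III and 13.2% in class II, against 24.2% in the whole MHC and 25.9% in the rest of the chromosome. At the 178 places with 5mC in both of its lists, 5hmC was present in high glucose alone at 4 (2.25%) and in normal glucose alone at 20 (11.2%). In the rest of the chromosome it was 94 (3.67%) and 219 (8.55%) of 2561. Opposite pairs were rare. 5hmC in normal glucose alone met 5mC in high glucose alone at 8 places (1.02%), and the converse occurred at 1 (0.128%). The rest of the chromosome had 78 (0.577%) and 22 (0.163%) of its places.

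The 5 places with the best weakest list show where both marks were firm throughout. Class I from 30865632 to 30867150 came first. There 5hmC had a fold of 8.93 with 35 fragments in high glucose and 9.90 with 35 in normal glucose, and 5mC 25.3 with 43 and 23.4 with 37. Class I from 30042021 to 30043633 was next, with 5hmC folds of 6.97 and 9.74 and 5mC folds of 27.7 and 30.7. At class I from 30862114 to 30864011, the 5hmC folds were 11.9 with 47 fragments and 10.7 with 38, and the 5mC folds 16.1 with 27 and 10.5 with 16. This place and the first one lie in the same 100 kb window, that from 30800001. The other 2 were a stretch from 33407638 to 33409454 in the centromeric end and one from 32116030 to 32119588 in class II. The class II place holds the widest 5mC region of its part in either list, 2914 bp in high and 2685 bp in normal glucose.

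Some of the strongest peaks carried a single mark. The strongest 5mC region of the MHC lay in class II from 32729097 to 32729979, at 40.3-fold and 69 fragments in high glucose and 35.1-fold and 56 fragments in normal glucose. The nearest 5hmC region was 28912 bp away in high and 41351 bp in normal glucose. In class I the strongest 5mC region ran from 29973952 to 29975719, with folds of 36.3 and 30.4 and 62 and 56 fragments, and no 5hmC region overlapped it. In class III the strongest 5mC peak was not in the same place at both levels. It ran from 31695554 to 31696735 in high glucose, with a fold of 28.8, and from 31746815 to 31747828 in normal glucose, with a fold of 22.9. Both places had 5mC and 5hmC in all 4 lists.

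The strongest 5hmC region of the MHC in high glucose lay in class II from 33072336 to 33073660, at 11.04-fold and 53 fragments, against 9.13-fold and 37 fragments in its normal-glucose partner, and no 5mC region lay within 33498 bp. At class II from 33391355 to 33393627, the strongest place of normal glucose, the fold was 11.5 with 49 fragments in high glucose and 11.5 with 47 in normal glucose. This was also the widest 5hmC region of class II in both lists, and the nearest 5mC region was 8699 bp away in high and 11777 bp in normal glucose. Class III had its strongest high-glucose 5hmC region from 31920528 to 31921475, with 38 fragments and a fold of 9.67, while its normal-glucose partner had 25 fragments and a fold of 3.92. The expected count was higher at the normal-glucose peak, which lowers its fold. The strongest of class III in normal glucose, from 31512948 to 31515235, had 36 fragments in high glucose and 32 in normal glucose. The widest 5hmC region of class III lay from 31542072 to 31544837 in high glucose and from 31542001 to 31544681 in normal glucose, with a small 5mC region inside at both levels. In class I, the widest 5hmC region of high glucose ran for 2016 bp from 30671944 to 30673959. The normal-glucose region with the longest overlap there was 336 bp wide. The widest of normal glucose ran for 3187 bp from 30848517 to 30851703, and the high-glucose region with the longest overlap was 1561 bp wide. Any regions with shorter overlaps at these places are not given.

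Of the 6 windows with the largest rises and falls of 5hmC cover, 3 lay in class I, which holds 19 of the 49 windows. The largest deficit in high glucose was from 30500001, where 5hmC had 8.53% in high and 15.1% in normal glucose, and 5mC 5.71% and 4.31%. Class III from 32000001 followed, with 13.9% and 18.1%, and was also among the 3 largest excesses of 5mC, with 10.6% and 7.82%. Class I from 30800001 had 11.9% and 15.8% 5hmC cover, with 5mC at 6.86% and 6.82%. The excesses of 5hmC in high glucose were smaller, from 29200001 in the telomeric end (2.91% and 0.661%), from 30300001 in class I (2.33% and 0.680%) and from 29500001 in the telomeric end (12.9% and 11.5%). Above a -log10 p of 10, the first deficit turned, with a difference of 0.249 percentage points, while those from 32000001 and 30800001 held at -3.02 and -2.70. The excesses shrank to 0.045, 0.389 and 0.182 points, against 2.25, 1.65 and 1.38 points with all listed peaks. Of the 49 windows, 27 had less and 22 more 5hmC cover in high glucose, and above that threshold 13 had less and 33 more.

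For 5mC, the largest excess in high glucose was in class I from 31100001, with 6.76% in high and 3.18% in normal glucose, and 5hmC at 5.63% and 4.98%. Class I from 30600001 had 6.87% and 4.07%. The largest deficits were about 1 percentage point, in class III from 31500001 (8.10% and 9.11%), class II from 33200001 (3.32% and 4.29%) and the telomeric end from 28900001 (6.40% and 7.34%). Above a -log10 p of 10 the first of these turned, to 0.417 points, and the other deficits were -0.761 and -0.073 points. The excesses from 31100001, 30600001 and 32000001 kept their sign, at 1.13, 0.411 and 2.615 points, against 3.58, 2.80 and 2.75 with all listed peaks. Over the 49 windows, 29 had more 5mC cover in high glucose, 11 had less and 9 had none in either list. Above that threshold 25 had more and 14 had less.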

How the data were processed

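Per the labels, the files used here are narrow peak lists, 1 for each immunoprecipitated library and none of pooled samples. The authors' lists give each peak a deposited display score, which was not used. They also give a fold enrichment at the summit over the caller's background, a ratio made by the authors. The peak caller's p-value and q-value are deposited by the authors as -log10 values. The tools in the submitters' processing notes, listed without roles, are Bowtie 1.0.0, CASAVA 1.8.2, bedtools 2.17.0 and SAMtools 0.1.18, with the build hg19. No source used here states the peak caller, its control or how duplicate reads were treated. The highest q-value was 0.0488 to 0.0498 per list. Inside the lists, peak names call the high-glucose libraries Ctrl and the normal-glucose ones Low. Groups follow the sample titles. Rows on chromosomes 1 to 22 and X were kept, no rows of a list overlapped, and positions are printed 1-based.

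Members had their midpoint in the interval. A partner is a region of another list with an overlap of 1 bp or more. Shares carry Wilson and ratios exact binomial 95% intervals (SciPy 1.17.1, NumPy 2.4.6, pandas 2.3.3, Python 3.11.15, figures in matplotlib 3.10.9). For each peak kept, fragments t, a whole number, and their expectation L were solved so that the fold equals (t + 1)/(L + 1) and the p-value a Poisson probability, with a misfit under 1% of the step between whole numbers. The search was tested on simulated data. To match backgrounds, both numbers were scaled down in whichever library of a pair had the higher background. Depth is otherwise unknown, and the 4 to 69 fragments per MHC summit limit the precision.

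Regions named are, for each class and list, the strongest and the widest peak, the 3 strongest peaks per list found at 1 glucose level, the 5 places where all 4 lists overlap with the highest smallest -log10 p, and the 3 largest rises and falls of cover per mark in windows of 100 kb. The members, lists and alternatives were chosen with earlier results of these data known. The alternatives were stricter thresholds (-log10 p from 10, -log10 q from 2), merging within 500 bp, covered length, equal numbers of top peaks, matched background, membership by any overlap, 50% overlap of both regions, and leaving out the longest stretch of chromosome 6 without a peak. No sequence is shown because an hg19 genome was not used here.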

Additional observations from a re-analysis of the deposited data

How the results depend on the processing

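Above a -log10 p of 10, the 5hmC ratio of high over normal glucose turned to 1.198 in the MHC, 1.29 in class I, 1.24 in class III and 1.07 in class II. With matched background above that threshold it was 1.06 in class I, and with equal numbers of top peaks 1.05 in class II. The 5mC ratio turned to 0.976 in the MHC and 0.972 in class III with matched background and to 0.985 in class III with equal numbers of top peaks. Density over the rest of chromosome 6 became 2.41 for high-glucose and 2.46 for normal-glucose 5hmC and 2.77 and 2.74 for 5mC above a -log10 p of 10, and 2.53 and 2.63 for 5hmC by covered length. The share of high-glucose regions with a partner became 63.6% for 5hmC and 58.7% for 5mC with 50% overlap of both regions, and 60.0% and 76.6% above the stricter threshold. The share of 5mC regions with 5hmC became 10.3% in high and 17.0% in normal glucose with 50% overlap, and 17.0% and 18.9% above that threshold. Stricter thresholds and overlaps leave fewer regions by construction, and the cause of the turned ratios was not tested. The other 49 values stayed within the interval of their main value, and none of them reversed. Some lost most or all of the difference between the glucose levels. The 5hmC ratio of class III was 1 with equal numbers of top peaks and with matched background. With equal numbers of top peaks, the MHC ratio was 0.994 for 5hmC and 1.05 for 5mC. No paired analysis was possible because each group holds 1 library. The 4 to 69 fragments behind an MHC summit limit what single peaks can show.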
